A study of Mus musculus with 9 samples.

Results

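The genes described are the hypoxia-inducible factor (HIF) group: the oxygen-regulated factor subunits Hif1a, Epas1 and Hif3a, the prolyl hydroxylases Egln1 and Egln3, and the target genes Bnip3, Bnip3l, Adm, Ankrd37 and Ndrg1. They were chosen by symbol, and all 10 were found among the 55367 symbols of the count table. All 10 were also among the 15138 genes that passed a filter on low counts, 9 of them with every library of all 3 groups past its floor and Hif3a with those of 2 groups. RNA came from mouse left ventricle, described as infarct core together with the region around it, in 3 libraries from sham-operated hearts (Sham), 3 after myocardial infarction (MI) and 3 after MI with BPD treatment (MI+BPD). The infarcted hearts were taken at day 14, and the study asks whether BPD given in the proliferative phase of healing goes with less fibroblast activation. What BPD stands for, its dose, and the strain, age and sex of the mice were not found in the labels, which also give no time for the sham hearts. The labels do not say whether the libraries of a group come from separate animals, so p-values measure the spread between these libraries.

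In oxygenated cells the prolyl hydroxylases mark the HIF alpha subunits for destruction through the von Hippel-Lindau protein (Vhl), using oxygen, 2-oxoglutarate and iron. When oxygen or iron runs short the alpha subunits persist, pair with Arnt and switch on genes for glucose use, vessel growth, mitophagy and matrix processing, among them Egln3 and other brakes of the same pathway. This control acts mostly on protein stability, so transcript levels of the factors measure their supply of messenger RNA and not their activity. In heart, Hif1a and Epas1 are studied for their part in ischaemic injury and vessel growth.

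HIF binds DNA at the letters ACGTG or GCGTG, the hypoxia response element. Promoter windows of 300 bases (250 before and 50 after the gene's start) were taken from RefSeq on GRCm38.p6 and matched 7 of the 10 genes (Hif1a, Hif3a, Egln1, Egln3, Bnip3, Adm and Ankrd37). All 7 held at least 1 match on either strand, against 43.8% of 32851 windows of the same length over all genes (19.6% for ACGTG and 32.4% for GCGTG). The genes were chosen as HIF factors and known targets, and the windows were not matched for base composition. Enrichment was therefore not tested. Bnip3 held 5 matches, a number reached in 1.66% of windows, Ankrd37 held 4 and Hif1a 3. A match is a description of letters and not a measured binding site. The stretches below are upstream bases outside annotated exons of 4 genes whose transcripts differed between infarcted and sham hearts, with matches in capitals (CACGC is GCGTG on the other strand). Each was picked as the stretch of at most 130 such bases with the most matches. CACGTG reads as ACGTG on both strands and counts as 2 matches; it is also the letters of an E-box.
Hif1a: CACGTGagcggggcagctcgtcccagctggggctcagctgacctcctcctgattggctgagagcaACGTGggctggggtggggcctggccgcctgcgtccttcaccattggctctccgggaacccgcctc
Egln1: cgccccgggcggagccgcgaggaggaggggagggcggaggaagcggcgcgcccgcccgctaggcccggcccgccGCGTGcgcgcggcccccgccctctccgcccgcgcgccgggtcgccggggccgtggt
Egln3: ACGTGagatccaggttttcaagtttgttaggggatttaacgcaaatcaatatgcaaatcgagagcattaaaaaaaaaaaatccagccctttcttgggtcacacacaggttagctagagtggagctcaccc
Bnip3: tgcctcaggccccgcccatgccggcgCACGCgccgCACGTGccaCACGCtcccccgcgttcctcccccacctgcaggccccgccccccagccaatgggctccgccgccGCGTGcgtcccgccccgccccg
These lie at chr12:73907732-73907861 on the plus strand, chr8:124949325-124949454 on the minus strand, chr12:54203974-54204103 on the minus strand and chr7:138909520-138909649 on the minus strand. The Hif1a stretch, from a gene with more transcript after infarction, and the Bnip3 stretch, from a gene with less, both carry CACGTG.

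Levels are given as CPM, the reads of a gene relative to its library's total after scaling by the trimmed mean of M values (TMM), which compare 1 gene between libraries but not different genes. A gene was called, written as rose or fell, at an adjusted p under 0.05 in edgeR's quasi-likelihood test with Benjamini-Hochberg adjustment over all genes tested. Total counts ran from 14451410 to 17703461 in Sham, 19101748 to 19269072 in MI and 17006222 to 17424302 in MI+BPD. Genes of mitochondrial DNA took 34.4% to 35.2% of counts in Sham, 11.4% to 18.2% in MI and 17.6% to 25.7% in MI+BPD. The summed CPM of 10 cardiomyocyte markers, all detected in every group, ran from 91915 to 94430 in Sham, 17460 to 32220 in MI and 30816 to 49963 in MI+BPD. Sums ran from 1250.4 to 1444 in Sham, 16856 to 26336 in MI and 22699 to 24515 in MI+BPD for 10 fibroblast markers, and from 426 to 508, 822 to 1408 and 1048 to 1381 for 10 macrophage markers. The 10 endothelial markers summed to between 1155 and 1422, 806 and 1017, and 872 and 999, and the 10 pericyte and smooth muscle markers to between 1917 and 2080.2, 1612 and 1751, and 1719.9 and 1968. The sum of this last list does not stand for each of its markers. In MI against Sham 5 of them rose, 3 fell and 2 were not called (80% called, against 68.9% of all genes), with a median log2 change of 0.70. None of 5 adipocyte markers passed the filter, and MI replicate 1 held 626 of the 634 counts of Adipoq. Sham hearts have no infarct, so tissue region and surgery cannot be told apart in comparisons with Sham, and in bulk tissue neither can fewer cells of a type and less RNA per cell. The part of cell mixture in the differences below was not tested.

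The factor subunits moved apart after infarction: Hif1a rose and Epas1 fell. Hif1a, the broadly expressed subunit of HIF-1, had 138, 118 and 109.7 CPM in the sham hearts, 196, 202 and 202 CPM in MI, and 209, 196 and 197 CPM in MI+BPD. Every infarcted library lay above every sham library, and the MI and MI+BPD libraries overlapped. The log2 change was 0.71 ± 0.10 (SE) in MI against Sham (1.64-fold, adjusted p = 0.000207) and 0.72 ± 0.10 in MI+BPD against Sham (adjusted p = 0.000422). These comparisons share the sham libraries. Within MI the Hif1a values varied by a coefficient of variation of 1.68%, while the cardiomyocyte marker sum in the same libraries ran from 17460 to 32220 CPM.

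Epas1 encodes HIF-2 alpha, the subunit known for its high level in endothelium. It had 496, 480.5 and 489 CPM in the sham hearts, 224, 216 and 266 CPM in MI, and 338, 259 and 237 CPM in MI+BPD. All sham libraries lay above all infarcted ones, and the highest infarcted value belonged to MI+BPD replicate 1, the infarcted library with the most cardiomyocyte marker counts. Epas1 fell by 1.05 ± 0.15 (SE) on the log2 scale in MI against Sham (0.482-fold, adjusted p = 0.000236) and by 0.81 ± 0.15 in MI+BPD against Sham (adjusted p = 0.00164). The median change of the 10 endothelial markers in MI against Sham was -0.37, with 6 lower, 1 higher and 3 not called. Their changes ran from -1.19 for Kdr to 0.69 for Erg.

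Hif3a, whose products include inhibitors of the other subunits, was close to the filter, with 10 to 17 reads a library in Sham, 13 to 17 in MI and 8 to 18 in MI+BPD. Its levels were 1.46, 0.875 and 1.30 CPM in Sham, 0.633, 0.692 and 0.598 CPM in MI, and 1.08, 0.565 and 0.406 CPM in MI+BPD. The Sham and MI libraries did not overlap, but the change of -0.91 ± 0.37 (SE) did not pass (adjusted p = 0.0530). It passed in limma-voom (0.0302), with median-ratio factors (0.0446), in a fit of those groups alone (0.0224) and without Sham replicate 2 (0.0467), MI+BPD replicate 1 (0.0234) or MI+BPD replicate 3 (0.0448). In MI+BPD against Sham the libraries overlapped and the change was -0.84 ± 0.38 (SE, adjusted p = 0.0833). That change passed in limma-voom (-1.16, adjusted p = 0.00754) and, at -1.34, without MI+BPD replicate 1 (adjusted p = 0.0113). At this depth the direction in MI+BPD against MI was not detectable, with a log2 interval from -0.78 to 0.92.

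**Figure D1:**
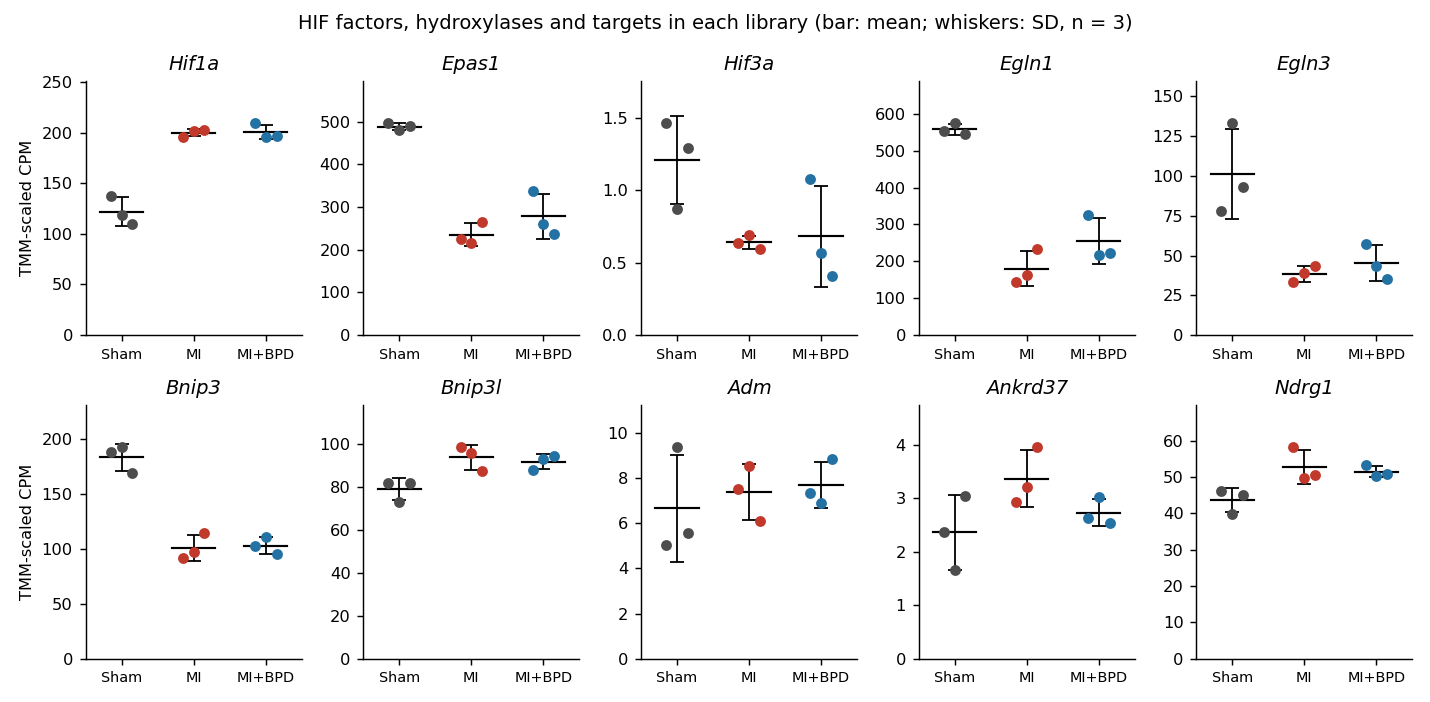
TMM-scaled CPM of the 10 genes (vertical axes, each from 0) in the Sham, MI and MI+BPD libraries; points are libraries, bars group means and whiskers the SD of 3 libraries. Hif1a is higher in all infarcted libraries, Epas1, Egln1, Egln3 and Bnip3 are lower, and the MI and MI+BPD points overlap in every panel.

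The ratio of Hif1a to Epas1 within a library does not depend on library scaling. It is built from the same reads as the changes above, so it describes them on another scale and adds no independent evidence. Hif1a reads per Epas1 read were 0.277, 0.246 and 0.224 for Sham, 0.875, 0.931 and 0.761 for MI, and 0.619, 0.757 and 0.828 for MI+BPD. The lowest infarcted ratio was thus over 2 times the highest sham ratio. On the log2 scale the ratio averaged -2.01 ± 0.15 for Sham, -0.23 ± 0.15 for MI and -0.46 ± 0.21 for MI+BPD (SD, n = 3), a difference of 1.78 for MI and 1.55 for MI+BPD against Sham. A 2-sided exact permutation test gave p = 0.1 for each, the smallest that 3 against 3 libraries can give (adjusted p = 0.2 over 12 tests of 4 ratios). Between MI+BPD and MI the ratio differed by -0.23 with overlapping libraries (exact permutation p = 0.2). The log2 ratio of Hif1a to Hif3a averaged 6.63 ± 0.34 for Sham, 8.24 ± 0.10 for MI and 8.26 ± 0.64 for MI+BPD (SD, n = 3), with both infarcted groups above all sham libraries.

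Both prolyl hydroxylases among the 10 genes fell, and in MI against Sham Egln1 had the largest drop of the 10. Egln2, a prolyl hydroxylase outside the 10 that is named after its values were seen, fell by 0.25 on the log2 scale in MI (adjusted p = 0.0302). Its MI and Sham libraries overlapped. Egln1 encodes PHD2, the main oxygen sensor that sets HIF-1 alpha levels. It had 553, 574 and 546 CPM in the sham hearts, 144, 162 and 234 CPM in MI, and 327, 217 and 221 CPM in MI+BPD. No infarcted library reached the sham range, and the spread among infarcted libraries was wide. The log2 change was -1.63 ± 0.22 (SE) in MI (0.323-fold, adjusted p = 0.000179) and -1.13 ± 0.21 in MI+BPD against Sham (adjusted p = 0.00196). Over the 6 infarcted libraries, ordering by Egln1 gave the same order as ordering by the cardiomyocyte marker sum: MI 1, MI 2, MI+BPD 2, MI+BPD 3, MI 3 and MI+BPD 1, with sums of 17460, 18585, 30816, 31083, 32220 and 49963 CPM. This match was picked after the values were seen, and how many of all genes share the order was not counted. Epas1, Egln3 and Bnip3, which also fell, gave other orders.

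**Figure D2:**
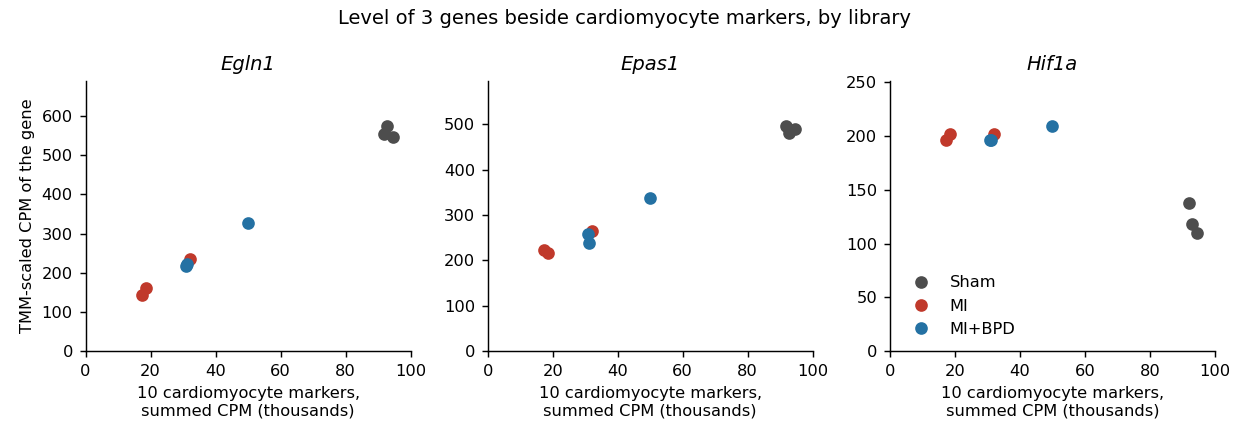
CPM of Egln1, Epas1 and Hif1a (vertical axes, from 0) against the summed CPM of 10 cardiomyocyte markers (horizontal axis, in kilo-CPM), with 1 point a library. Among infarcted libraries Egln1 runs from 144 CPM in MI replicate 1, with the lowest marker sum, to 327 CPM in MI+BPD replicate 1, with the highest. Hif1a lies between 196 and 209 CPM in all infarcted libraries. A link to the marker sum was not tested for any of these genes.

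Egln3 encodes PHD3, a hydroxylase that is itself a HIF target. It had 78.2, 133 and 92.8 CPM in the sham hearts, 33.5, 38.8 and 43.5 CPM in MI, and 57.3, 43.2 and 35.4 CPM in MI+BPD. The lowest sham library lay above every infarcted library. Egln3 fell by 1.39 ± 0.22 (SE) on the log2 scale in MI (adjusted p = 0.000455) and by 1.16 ± 0.22 in MI+BPD against Sham (adjusted p = 0.00205). The ratio of Egln3 to Egln1 within a library overlapped between all groups, at a log2 mean of -2.50 ± 0.36 for Sham, -2.20 ± 0.20 for MI and -2.50 ± 0.16 for MI+BPD (SD, n = 3).

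The target genes did not move as a group: Bnip3 fell, Bnip3l and Ndrg1 rose by small amounts, and Adm and Ankrd37 did not pass. Bnip3, a mitochondrial outer membrane protein that recruits the autophagy machinery, had 187, 192 and 169 CPM in the sham hearts, 91.3, 96.9 and 114 CPM in MI, and 102, 111 and 95.2 CPM in MI+BPD. The infarcted groups overlapped and lay below all sham libraries. Bnip3 fell by 0.86 ± 0.11 (SE) on the log2 scale in MI (0.551-fold, adjusted p = 0.000137) and by 0.83 ± 0.11 in MI+BPD against Sham (adjusted p = 0.000317). When libraries were scaled by their totals alone, the change in MI was -0.13 and did not pass (adjusted p = 0.247).

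Bnip3l, its paralogue known as NIX, had 81.9, 73.1 and 81.9 CPM in the sham hearts, 98.6, 95.6 and 87.2 CPM in MI, and 87.9, 92.9 and 94.4 CPM in MI+BPD. Its infarcted libraries all lay above the sham libraries, by a small margin. The pseudogene Bnip3l-ps, a near copy, held 3 to 7 reads a library. The rise of 0.25 ± 0.08 (SE) on the log2 scale in MI (adjusted p = 0.0181) was lost without Sham replicate 2 (0.0799), MI replicate 1 (0.0592) or MI replicate 2 (0.0539). In MI+BPD against Sham the change was 0.22 ± 0.08 (adjusted p = 0.0384), and the call was lost in 7 of 9 fits that left out a library (largest adjusted p = 0.144), in DESeq2 (0.0758) and with the replicate number as a block (0.0770). Within a library, Bnip3 reads per Bnip3l read were 2.29, 2.63 and 2.06 for Sham, 0.926, 1.01 and 1.31 for MI, and 1.16, 1.19 and 1.01 for MI+BPD. Every infarcted library was below every sham library, with log2 differences of -1.11 for MI and -1.05 for MI+BPD (exact permutation p = 0.1 each, the smallest possible, adjusted p = 0.2).

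**Figure D3:**
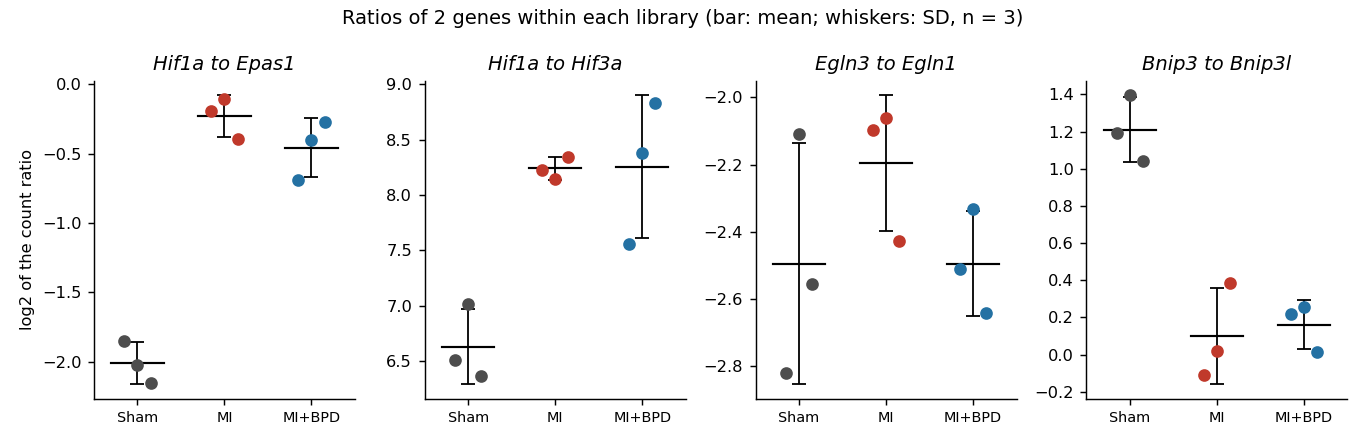
Log2 of the ratio of read counts of 2 genes within each library (vertical axes, which do not start at 0) for 4 gene pairs in Sham, MI and MI+BPD; bars are means and whiskers the SD of 3 libraries. Hif1a to Epas1 and Hif1a to Hif3a are higher, and Bnip3 to Bnip3l lower, in all infarcted libraries, and Egln3 to Egln1 overlaps.

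Ndrg1, a hypoxia- and stress-induced protein, had 46.3, 39.97 and 45.1 CPM in the sham hearts, 58.3, 49.6 and 50.5 CPM in MI, and 53.3, 50.3 and 50.9 CPM in MI+BPD. All infarcted libraries lay above all sham libraries, and those of MI and MI+BPD overlapped. Ndrg1 rose by 0.27 ± 0.09 (SE) on the log2 scale in MI (adjusted p = 0.0184) and by 0.23 ± 0.09 in MI+BPD against Sham (adjusted p = 0.0400). The call in MI was lost without Sham replicate 2 (0.0782) or MI replicate 1 (0.0642) and in a fit of those groups alone (0.0501). In MI+BPD it was lost in 5 of the 9 fits that left out a library (largest adjusted p = 0.161, without MI+BPD replicate 1) and in DESeq2 (0.0993).

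Adm, the vasodilator peptide adrenomedullin, had 5.03, 9.36 and 5.57 CPM in the sham hearts, 7.52, 8.51 and 6.08 CPM in MI, and 7.31, 6.88 and 8.84 CPM in MI+BPD. Sham replicate 2 was the highest of the 9 libraries, and the groups overlapped. The log2 change in MI was 0.15 ± 0.24 (SE, interval -0.38 to 0.68, adjusted p = 0.590). Ankrd37, an ankyrin-repeat protein induced by HIF-1, had 2.38, 1.66 and 3.05 CPM in the sham hearts, 2.93, 3.22 and 3.96 CPM in MI, and 2.64, 3.03 and 2.54 CPM in MI+BPD. Its change in MI was 0.50 ± 0.23 (SE), which did not pass (adjusted p = 0.0821), but passed without Sham replicate 3 (0.0308) and with upper-quartile factors (0.0495). The gene lies across Ufsp2 and Lrp2bp in the GENCODE M21 annotation, and Ufsp2 held 244 to 601 reads a library against 19 to 86 for Ankrd37, so without a stated strand setting its reads are uncertain.

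Over the 10 genes, 3 rose, 4 fell and 3 were not called in MI against Sham, a called share of 70% where 68.9% of all genes tested were called (37% higher and 31.9% lower). The libraries of these groups did not overlap for 8 of the 10 genes, or 80%, against 74.4% of all genes. Neither share stands far from the background. The median log2 change was -0.35 over the 10 genes and 0.07 over all genes. In MI+BPD against Sham 3 rose, 4 fell and 3 were not called, 70% against 59.6% of all genes (31.8% higher and 27.8% lower), and 7 of 10 did not overlap, against 68.5%.

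**Figure D4:**
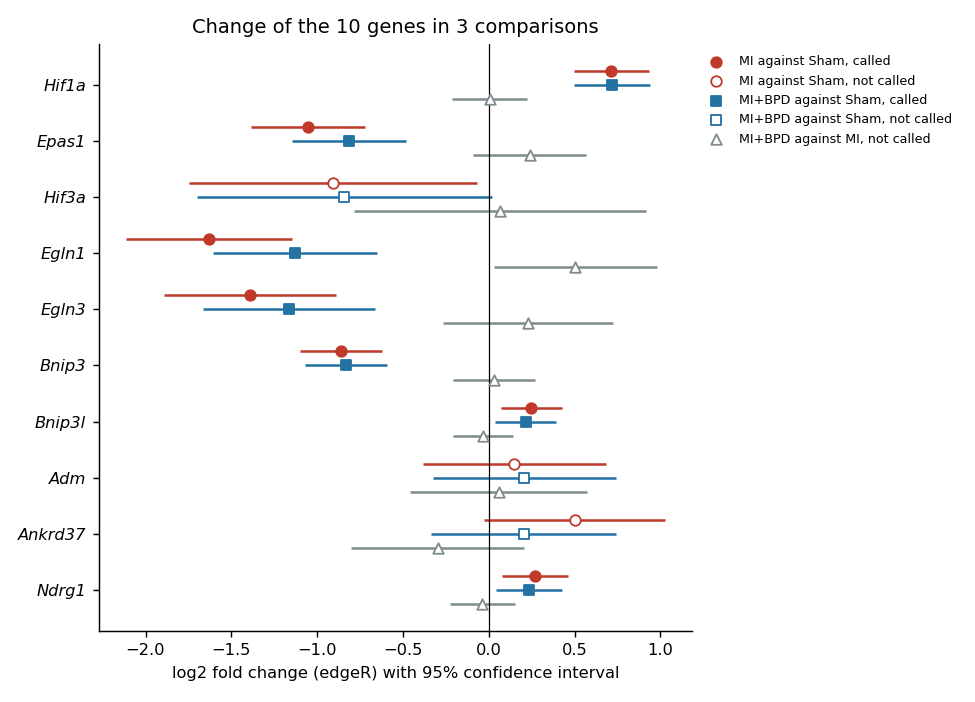
Log2 fold change (horizontal axis) with its 95% confidence interval for each of the 10 genes in 3 comparisons; filled symbols were called in edgeR and open symbols were not. Intervals of the 2 comparisons with Sham lie side by side for each gene, and the intervals of MI+BPD against MI include 0 for every gene but Egln1 (0.03 to 0.98). All intervals use a spread estimated over the 3 groups together, and Egln1 varied far less in Sham than in the infarcted groups.

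Because the mitochondrial share of counts differed between groups, other library scalings were compared. In MI against Sham the median change of all genes was 0.07 with TMM and 0.81 with library totals as the only scaling, under which 85.6% of called genes were higher, against 53.6% with TMM. Under library totals Hif1a was at 1.45, Ankrd37 at 1.23, Ndrg1 at 1.01, Bnip3l at 0.99 and Adm at 0.89, and all 5 were called higher. Egln1 (-0.92), Egln3 (-0.66) and Epas1 (-0.33) were called lower, and Bnip3 (-0.13) and Hif3a (-0.18) were not called. The sign of all 10 changes was the same under the 5 scalings. Relative to the median of all genes, Hif1a was 0.64 above it and Egln1 1.71 below it with TMM, and 0.64 above and 1.73 below with library totals.

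**Figure D5:**
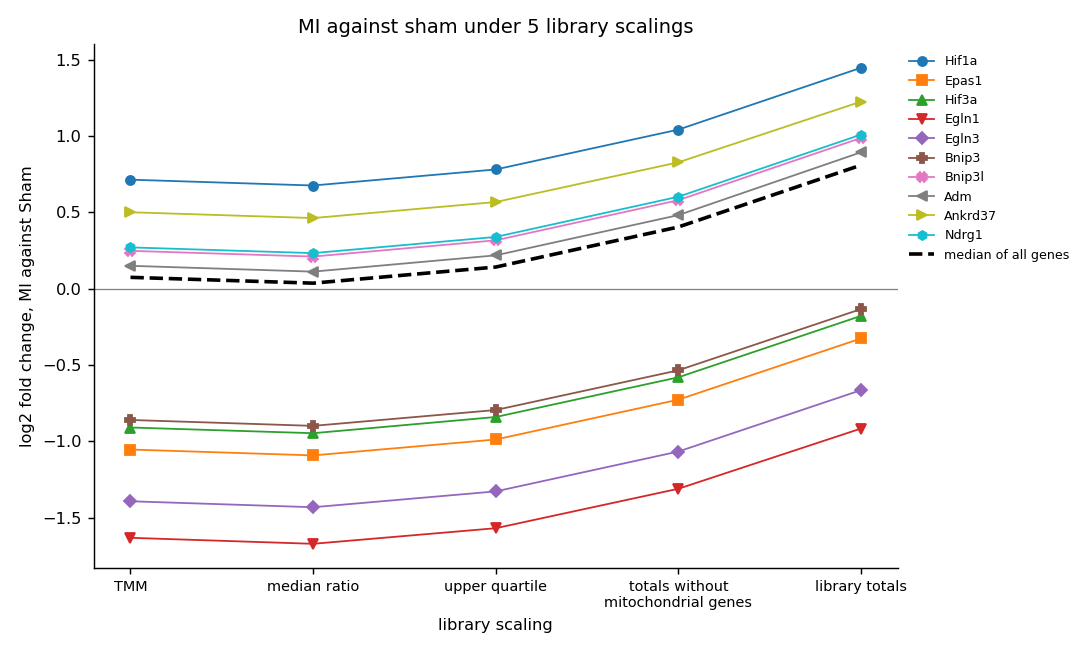
Log2 fold change in MI against Sham (vertical axis) of the 10 genes and the median of all genes tested (dashed) under 5 library scalings (horizontal axis), all in edgeR. The lines run nearly parallel: the median moves from 0.07 with TMM to 0.81 with library totals, the genes move up with it, and no gene crosses 0.

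MI+BPD was compared with MI to ask whether treatment went with a different level of these genes in infarcted hearts. No gene of the 10 was called, and the libraries of the groups overlapped for all 10, where 13.9% of all genes did not overlap. In edgeR 0 of 15138 genes were called (0%), with 2043 at an unadjusted p under 0.05 (13.5%), 1 of which, Egln1, is among the 10. DESeq2 called 8 genes higher and 4 lower and limma-voom 771 and 221, none of them among the 10. Hif1a differed by 0.00 ± 0.10 (SE) on the log2 scale, with an interval from -0.21 to 0.22, Bnip3 by 0.03 (-0.21 to 0.27), Bnip3l by -0.03 (-0.21 to 0.14) and Ndrg1 by -0.04 (-0.23 to 0.15). For these 4 genes no bound of the 95% interval lies farther than 0.27 from 0. These intervals, and those that follow, use a spread estimated with the Sham libraries included. Wider intervals held for Epas1 (0.24, from -0.09 to 0.57), Egln3 (0.23, from -0.27 to 0.72), Adm (0.06, from -0.46 to 0.57) and Ankrd37 (-0.30, from -0.80 to 0.21).

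Egln1 had the largest difference, 0.50 ± 0.21 (SE), with an interval from 0.03 to 0.98 and an adjusted p of 0.369. The spread behind this interval is shared with Sham, where Egln1 had a coefficient of variation of 2.61%. It was 26.6% in MI and 24.3% in MI+BPD, so the interval may be too narrow for these groups. The Egln1 mean was 180.0 ± 47.9 CPM in MI and 255 ± 62.1 CPM in MI+BPD (SD, n = 3). MI replicate 3 at 234 CPM lay above 2 of the 3 MI+BPD libraries. Without MI replicate 3 the change was 0.74 and passed (adjusted p = 0.0402), in a fit that called 1126 genes higher and 227 lower. Without MI+BPD replicate 1 it was 0.27 (adjusted p = 0.780), and with MI replicate 1 and MI+BPD replicate 1 both left out 0.14 (adjusted p = 0.987). The cardiomyocyte marker sum moved with it, at 22755 ± 8216 CPM in MI and 37287 ± 10978 CPM in MI+BPD (SD, n = 3), and all 10 cardiomyocyte markers had a positive change (median 0.66). Of these 10 markers 0 were called, and the sums overlapped. MI replicate 3 (32220 CPM) lay above MI+BPD replicates 2 and 3 (30816 and 31083 CPM).

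The other genes of the pathway were taken from 6 lists holding 76 genes, of which 72 were tested. In MI against Sham 28 rose, 32 fell and 12 were not called, so 83.3% were called against 68.9% of all genes, and the median change was -0.20 against 0.07. For MI+BPD against Sham 26 rose and 30 fell, so 77.8% were called against 59.6% of all genes, and for MI+BPD against MI 0 were called in edgeR. In that last comparison limma-voom called 2 of the 72 higher, Vldlr (0.51) and Flt1 (0.42), and 1 lower, Apln (-0.54). The same fit called 771 of all 15138 genes higher and 221 lower.

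Among 12 genes of the HIF machinery 3 rose, 7 fell and 2 were not called in MI against Sham (83.3% called, against 68.9% of all genes). Arnt2, an alternative partner of the alpha subunits, held 1 to 4 reads a library in Sham and 35 to 107 in MI. It passed the filter through the infarcted libraries and its sham reads are too few for a size, so its call is given with no fold change. Eloc (-0.70) and Cul2 (-0.80) of the ligase that works with Vhl fell, as did Cited2 (-0.62), which competes with HIF for its coactivators. With library totals as the only scaling Eloc was at 0.03 and Cited2 at 0.12, both not called, and Cul2 was at -0.07 and not called. Chosen after their values were seen, Vhl (0.52) and the coactivator Crebbp (0.33) are the other genes that rose, and the asparaginyl hydroxylase Hif1an fell by 0.88 (-0.15 and not called with library totals). Arnt, the common partner, had a mean of 65.1 ± 2.33 CPM without infarction and 68.8 ± 2.19 CPM after MI (SD, n = 3), which did not pass (adjusted p = 0.268). With library totals Arnt was called higher (0.82, adjusted p = 5.55e-05), as it was with totals without mitochondrial genes (0.41, adjusted p = 0.000683).

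Of 21 tested targets for glucose uptake and glycolysis 8 rose, 12 fell and 1 was not called, with a median of -0.53. The called share was 95.2%, against 68.9% of all genes. The lactate exporter Slc16a3 rose by 3.09 ± 0.17 (SE), from 1.34 ± 0.238 to 11.5 ± 1.57 CPM (SD, n = 3), and the glucose transporter Slc2a3 by 1.35. Glycogen synthase Gys1 and hexokinase Hk2, both abundant in muscle, fell by 1.59 and 1.56 on the log2 scale. Of 11 tested secreted and vessel-growth targets 5 rose and 3 fell, a called share of 72.7%, near the 68.9% of all genes. The growth factor binding protein Igfbp3 rose by 2.07 on the log2 scale and endothelin Edn1 by 1.57, while the VEGF receptor Flt1 fell by 1.19. Vegfa itself, named after its values were seen, went from 330.5 ± 54.0 CPM without infarction to 139 ± 35.1 CPM after MI and 156 ± 33.2 CPM after MI+BPD (SD, n = 3), and fell by 1.25 ± 0.21 (SE) in MI.

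The list in which no tested gene fell was that of collagen and matrix enzymes, with a median of 0.93. There 6 of 8 rose in MI against Sham and 2 were not called, a called share of 75%. Of all genes 68.9% were called, 37% higher and 31.9% lower. Without MI+BPD replicate 1, P4ha2 was called lower (-0.17, adjusted p = 0.0472). Lox, which crosslinks collagen, rose by 6.32 ± 0.40 (SE), from 8.52 ± 1.15 to 682 ± 231 CPM (SD, n = 3), Loxl2 by 3.42, the lysyl hydroxylase Plod2 by 1.95 and P4hb by 0.90. The fibroblast marker sum moved with this list, from 1343 ± 97.4 CPM without infarction to 22800.1 ± 5179 CPM after MI (SD, n = 3). Of 14 tested targets for stress, pH and mitochondria 4 rose and 8 fell (85.7% called, against 68.9% of all genes). Those that rose were the regulator Bhlhe40 (1.15) and, named after their values were seen, Ndufa4l2 (0.69), the nuclear receptor Rora (0.46) and the carbonic anhydrase Car9. Car9 held 0 to 4 reads a library in Sham and 25 to 44 in MI, passed the filter through the infarcted libraries and is given no fold change. Among those that fell were the lipoprotein receptor Vldlr (-1.61), the mTORC1 inhibitor Ddit4 (-1.12) and the mitochondrial protein Higd1a (-1.12). Of 6 tested iron targets 2 rose and 2 fell (66.7% called, near the 68.9% of all genes). These were transferrin (Trf, 1.92) and heme oxygenase Hmox1 (1.60), and the transferrin receptor Tfrc (-1.59) and the iron importer Slc11a2 (-0.54), the last at 0.19 and not called with library totals as the only scaling. Within MI, Trf ran from 67.9 to 257 CPM, Hmox1 from 9.25 to 24.4 CPM and Tfrc from 95.1 to 210 CPM. Over left-out libraries the change of Trf ran from 1.36 to 2.28, that of Hmox1 from 1.21 to 1.88 and that of Tfrc from -2.07 to -1.38, all called.

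Genes whose pattern over the 9 libraries was most like that of each factor were sought among 10493 candidates, by the root mean square difference of centred log2 CPM. For Hif1a these were Insig1, Gfpt1 and Snx1, at 0.077 to 0.089 where Hif1a itself had an SD of 0.37. For Epas1 they were Galt, Lactb and Akap7, at 0.027 to 0.045 with an SD of 0.51. For Hif3a the nearest were Cxcl12, Arap2 and Epb41l5, at 0.19 to 0.22 with an SD of 0.53. Hif3a held 8 to 18 reads a library, and every candidate had a mean of at least 5 CPM. The part of low counts in this larger distance was not tested. All values come from the same 9 libraries and 3 groups, so likeness includes the difference between Sham and infarcted libraries, and 68.9% of all genes were called there.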

How the data were processed

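The authors deposited 1 table of raw counts, with a row for each gene symbol and a column for each of 9 libraries. STAR and the builds mm10, GRCm39 and mm39 are named, without a role, per the submitters' processing notes. Which counter, strand setting and annotation made the counts is not given in the sources used here. RNA had an integrity number above 7.0 and was sequenced as 150 bp paired-end reads, per the labels' protocols. No molecular identifiers are named there.

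Genes were filtered with filterByExpr (minimum count 10, minimum total 15) and tested in edgeR 4.0.16 under R 4.3.3, with TMM factors, a robust quasi-likelihood model over the 3 groups, and p-values 2-sided and adjusted over 15138 genes. Ratios added 0.5 to each count. The alternatives were DESeq2 1.42.0, limma 3.58.1 (voom with quality weights), other scalings, filters and thresholds, a replicate block and left-out libraries. In data simulated for MI+BPD against MI (14939 genes), edgeR recovered 68.8% of 2-fold and 30.4% of 1.5-fold changes, and called 12 unchanged genes. The simulation gave a gene the same spread in every library, pooled over the 3 groups. In the data, replicates differed more in MI and MI+BPD than in Sham, so recovery for this comparison may be lower. Named beside the 10 genes are up to 4 called genes a list with the smallest adjusted p in MI against Sham, and for each factor the 3 most similar genes with a mean of at least 5 CPM. Of these, 1 gene is not reported here. The genes and lists were chosen with earlier results of these data known. Of the markers tested, 5 for neutrophils and 5 for erythroid cells had 0 calls in every comparison. The neutrophil markers summed to 54.2 CPM in MI replicate 1, against 4.56 and 3.36 CPM in MI replicates 2 and 3. The 8 lymphocyte markers held few sham reads and summed to 2.10 to 2.47 CPM in Sham, 50.1, 10.1 and 5.98 CPM in MI and 4.07 to 8.16 CPM in MI+BPD, with MI replicate 1 the highest.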

Additional observations from a re-analysis of the deposited data

How the results depend on the processing

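The replicate numbers did not pair the libraries: same-number deviations correlated at -0.158 to 0.194, and a library correlated best with its own number in 3 of 18 cases. With the replicate number as a block, 3 of the 10 genes rose and 4 fell in MI against Sham, 0 passed in MI+BPD against MI, and 2 rose and 4 fell in MI+BPD against Sham. Low counts limit the precision of Hif3a, Adm and Ankrd37. Against the main counts given in the report, in MI against Sham the number of the 10 that rose was 5 with library totals, 1 at an adjusted p under 0.01, 0 at 2-fold and 1 without replicate 1 of both infarcted groups. In MI+BPD against Sham it was 1 in DESeq2, 1 with median-ratio factors, 5 with library totals, 1 at 0.01, 0 at 2-fold and 1 without those libraries, and 2 fell at 2-fold.

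For the other pathway genes in MI against Sham, library totals gave 45 higher and 9 lower, totals without mitochondrial genes (chosen after seeing the data) 21 lower, and 2-fold 17 and 10. Library totals gave, for MI+BPD against Sham, 8 lower and 2-fold 16 higher and 5 lower. For MI+BPD against MI limma-voom called 2 higher and 1 lower. For all genes in MI against Sham (5594 higher, 4835 lower), library totals gave 10488 and 1765, totals without mitochondrial genes 3162 lower, and 2-fold 3169 and 1989. For MI+BPD against Sham (4816 and 4202) these were 9131 and 1383, 2657 lower, and 2625 and 1176. In MI+BPD against MI DESeq2 called 8 and 4 and limma-voom 771 and 221.

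Leaving out 1 library at a time, the number of the 10 that rose ran from 1 to 4 and that fell from 4 to 5 for MI against Sham, from 0 to 1 and at 0 for MI+BPD against MI, and from 1 to 3 and 4 to 5 for MI+BPD against Sham. The single fit with calls in MI+BPD against MI was that without MI replicate 3, so the other pathway genes ran from 0 to 6 higher and 0 to 1 lower, and all genes from 0 to 1126 and 0 to 227. Directions turned in MI against Sham for Adm (-0.016 to 0.47 over left-out libraries) and, with library totals, for Eloc (0.031), Cited2 (0.12) and Slc11a2 (0.19). The cause was not tested. For MI+BPD against MI these were, for Hif1a, -0.022 in limma-voom, -0.043 with upper-quartile factors, -0.20 with library totals, -0.088 with totals without mitochondrial genes, -0.0029 with no filter, -0.012 with only the groups compared and -0.051 without replicate 1 of both groups. For Hif3a they were -0.37 in limma-voom, -0.16 and -0.030 with those totals and -0.42 without both. For Bnip3 they were -0.017 with upper-quartile factors, -0.17 and -0.061 with those totals and -0.043 without both. For Adm they were -0.049 in limma-voom and -0.16 and -0.036 with those totals, and without both Egln3 was at -0.077, Bnip3l at 0.023 and Ndrg1 at 0.0042. Over left-out libraries Hif1a ran from -0.045 to 0.022, Hif3a from -0.42 to 0.34, Bnip3 from -0.037 to 0.13, Bnip3l from -0.080 to 0.0053, Adm from -0.060 to 0.17 and Ndrg1 from -0.082 to 0.041. The ratio of Hif1a to Hif3a ran from -0.27 to 0.36 there (-0.027 with 2 added to each count), that of Bnip3 to Bnip3l from -0.041 to 0.21, and that of Egln3 to Egln1 in MI+BPD against Sham from -0.16 to 0.19.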
